A study of Mus musculus with 32 samples.

Results

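Stem and progenitor cells of the marrow (haematopoietic, HSPCs), from which all blood lineages arise, were compared 24 h after an injection of lipopolysaccharide (LPS) and after one of phosphate-buffered saline (PBS), in mice whose leukaemia had regressed. These mice are called experienced. The comparison took every replicate labelled experienced, 4 after LPS and 4 after PBS, which are 8 of the 16 biological replicates of the series, with 1 table of values each. The other 8, from naive mice, 4 after LPS and 4 after PBS, enter where both responses are set side by side. In all groups the sorted cells were wild-type C57BL/6J donor cells that carried both CD45.1 and CD45.2 and were lineage-negative, Kit-positive and Sca1-positive. In experienced mice, lethally irradiated C57BL/6J recipients (CD45.2) had received 800000 such wild-type marrow cells with 200000 CD45.1 marrow cells homozygous for the human MLL-AF9 leukaemia fusion, inducible by doxycycline, and for its rtTA activator. In naive mice the 200000 partner cells were hMLL-AF9-null and homozygous for rtTA only. The leukaemia was induced with 5 weeks of doxycycline, from 6 to 8 weeks after the transplant, and regressed over 4 weeks without it before the injection. Whether naive mice were given doxycycline is not stated apart from this. The sources used here give neither the LPS dose nor the age of the mice. Nor do they tie the replicates to single mice or pools, so the p-values rest on the spread between samples that may not be separate animals.

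LPS is a component of the outer membrane of Gram-negative bacteria. It is bound by Cd14 and by the receptor complex of Tlr4 and Ly96, which signals through Myd88 to nuclear factor κB (NF-κB) and through a second adaptor pair to interferons. HSPCs respond to LPS itself and to the cytokines that other cells release, and infection is known to shift marrow output from lymphoid towards myeloid cells. The Sca1 antigen of the sort gate is the product of Ly6a, a gene that interferons induce in the mouse.

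Depth ran from 7.72 M to 22.3 M (M, 1000000) expected counts in the LPS libraries and 11.02 M to 18.5 M in the PBS libraries, where an expected count is RSEM's estimate of the reads from a gene. LPS replicates 1 to 3 were alike, with 0.708% to 1.05% of well-covered genes more than 2-fold apart between any 2 of them. LPS replicate 4 differed by more than 2-fold from each of them at 19.3% to 21.4% of genes, and from PBS replicate 4 at 9.90%. It had 14859 detected genes, against 17254 to 18813 in the other LPS libraries, and 7.30% of its counts came from mitochondrial genes, against 1.91% to 2.504%. Among the PBS libraries, replicates 1 and 2 were 1.65% apart and the other pairs 6.01% to 10.9%, and PBS replicate 4 had 5.94% mitochondrial counts, against 2.06% to 3.25% in PBS replicates 1 to 3. Over the group means these measures did not pass a two-sided exact permutation test (mitochondrial share, LPS minus PBS −0.066 percentage points, p = 0.971; detected genes −746.8, p = 0.457; n = 4 each). The genes of the sort were present in all 8 libraries. Kit, the stem cell factor receptor, had 124, 125, 115 and 203 TPM after LPS, against 222, 182, 178 and 181 TPM after PBS, and Ptprc, which encodes CD45, had 67, 75.4, 65.6 and 85 TPM after LPS, against 142, 115, 122 and 85.4 TPM after PBS.

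LPS changed the levels of 1940 genes in experienced HSPCs, and more of them were lower than higher. By edgeR's quasi-likelihood test over 15186 genes, 686 genes (4.52%) were called higher and 1254 (8.26%) lower at a Benjamini-Hochberg adjusted p under 0.05. Of these, 199 and 757 differed by more than 2-fold. The 4 LPS and 4 PBS libraries did not overlap in CPM (counts per 1000000) for 510 of the genes called higher and 1083 of those called lower. The median log2 change of all tested genes was −0.025 by edgeR and −0.13 on the log2(TPM + 1) scale. TPM (transcripts per 1000000, scaled for gene length) have the same total in every library, so this is a shift of the median gene. Mitochondrial genes held 13.45% of TPM in LPS replicate 4 and 2.97% to 3.91% in LPS replicates 1 to 3. In PBS libraries they held 3.47% to 10.53%. Their part in the shift was not tested. The share of calls that were higher, 35.4%, moved to 30.3% with upper-quartile factors and to 15.7% with limma on log2(TPM + 1). In bulk RNA a change in the mix of sorted cells and a change in RNA per cell cannot be told apart, and Sca1 is both part of the gate and the product of a gene that rose here.

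**Figure D1:**
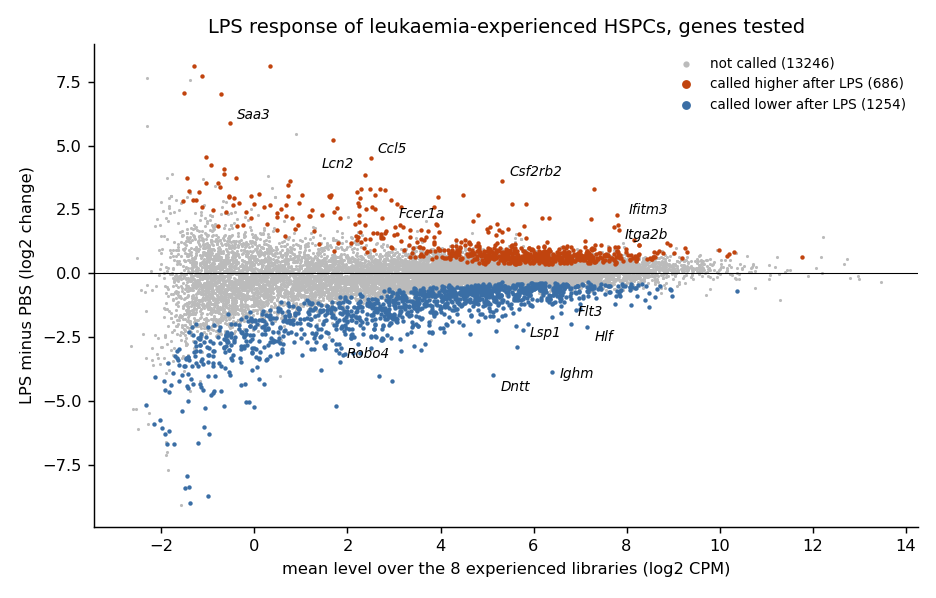
Each point is 1 of the 15186 genes tested. The x axis gives its mean level over the 8 experienced libraries in log2 CPM and the y axis its log2 change, LPS minus PBS. Orange-red points (686) were called higher after LPS and blue points (1254) lower, and the named genes run from Saa3 at 5.88 to Dntt at −3.97.

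Most genes of LPS sensing itself did not pass the test. Of 23 genes of the Toll-like receptor pathway, 2 were called higher and 4 lower, against 4.52% and 8.26% of all genes, with a median log2 change of −0.078. Tlr4, the LPS receptor, had 3.92, 5.04, 2.66 and 1.76 TPM after LPS, against 6.2, 5.23, 8.46 and 7.07 TPM after PBS. Its groups do not overlap in TPM, but the change did not pass the test (log2 change −0.71, SE 0.28, edgeR adjusted p = 0.11). Ly96, the protein that presents LPS to Tlr4, was near the detection limit in several libraries, with 1.76, 2.28, 1.52 and 6.16 TPM after LPS, against 1.42, 3.6, 0.98 and 2.95 TPM after PBS (log2 change 0.53, SE 0.60, edgeR adjusted p = 0.618). Cd14, the LPS co-receptor, had 3.26, 3.12, 3.98 and 0 TPM after LPS, against 0.78, 0.51, 0.3 and 0.16 TPM after PBS. LPS replicates 1 to 3 were above all PBS libraries and LPS replicate 4 had no count. Cd14 was called higher (log2 change 2.71, SE 0.73, edgeR adjusted p = 0.0226), but not without LPS replicate 1, 2 or 3 (2.62, 2.62 and 2.43) or PBS replicate 2 or 3 (2.79 and 2.57). Myd88, the adaptor, had 39.7, 38.2, 38 and 22.2 TPM after LPS, against 26.2, 24.3, 25.7 and 17.9 TPM after PBS, with LPS replicate 4 inside the PBS range. It was called higher (log2 change 0.71, SE 0.19, edgeR adjusted p = 0.0218), though not without LPS replicate 1, 2 or 3 (0.65, 0.64 and 0.66) or PBS replicate 2 (0.73). Tlr7 and Tlr9, endosomal receptors for nucleic acids, and Ticam2, the adaptor that links Tlr4 to interferon, were called lower (−1.92, SE 0.29, −2.16, SE 0.44 and −0.90, SE 0.18). Tlr7 had 0.66, 0.9, 0.47 and 3.91 TPM after LPS, against 4.11, 4.89, 3.05 and 3.92 TPM after PBS, so that in TPM LPS replicate 4 lay inside the PBS range. In CPM every LPS library lay below every PBS library for this gene. Irak3, an inhibitor of Toll-like receptor signalling, did not pass (log2 change −0.02, SE 0.27, edgeR adjusted p = 0.974).

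Chemokines were among the largest rises. Of 14 tested chemokine genes, 5 were called higher (3 without PBS replicate 1) and 1 lower, against 4.52% and 8.26% of all genes. Their median log2 change was 0.69. Ccl5, which attracts T cells and monocytes (ENSMUSG00000035042, chromosome 11, 83525778 to 83530518, GRCm38), had 131, 93.2, 93.1 and 44.9 TPM after LPS, against 4.36, 9.11, 2.35 and 1.52 TPM after PBS. Every LPS library lay above every PBS library, and LPS replicate 4 was the lowest of the LPS group (log2 change 4.51, SE 0.58, edgeR adjusted p = 0.000135). Cxcl10, a chemokine induced by interferon (ENSMUSG00000034855, chromosome 5, 92346638 to 92348889), had 11.6, 24.4, 14.4 and 26.9 TPM after LPS, against 1.49, 1.82, 1.18 and 2.47 TPM after PBS, and here LPS replicate 4 was the highest library (log2 change 3.29, SE 0.40, edgeR adjusted p = 9.16e-05). Ccl2, the monocyte attractant, was low throughout, with 3.43, 3.79, 3.85 and 4.77 TPM after LPS, against 1.41, 0.67, 0.57 and 0.83 TPM after PBS (log2 change 2.21, SE 0.42, edgeR adjusted p = 0.00284). Cxcl2, a neutrophil attractant, had 15.6, 14.8, 9.93 and 1.53 TPM after LPS, against 0.96, 5.36, 1.07 and 2.87 TPM after PBS. LPS replicate 4 lay inside the PBS range, and the call (log2 change 2.16, SE 0.53, edgeR adjusted p = 0.0134) ended without PBS replicate 1 (2.01). Ccl9 was the member that fell, with 20.9, 23.8, 19.1 and 31.3 TPM after LPS, against 80.3, 45, 80 and 46.3 TPM after PBS (log2 change −1.20, SE 0.18, edgeR adjusted p = 0.000529).

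A pair of feedback inhibitors of NF-κB rose, while most of its listed targets did not pass. Of 23 NF-κB targets, 3 were called higher and 1 lower, against 4.52% and 8.26% of all genes, with a median log2 change of 0.091. Without LPS replicate 4 or PBS replicate 3, 5 were called higher. Tnfaip3, the ubiquitin-editing enzyme A20 that ends NF-κB signalling (ENSMUSG00000019850, chromosome 10, 19000910 to 19015657), had 131, 82.7, 99.7 and 48 TPM after LPS, against 22, 12.8, 12.7 and 30.2 TPM after PBS (log2 change 2.15, SE 0.41, edgeR adjusted p = 0.00298). Nfkbia, the inhibitor IκBα, had 92, 84.2, 89 and 51 TPM after LPS, against 55.4, 47.1, 33 and 39.8 TPM after PBS (log2 change 1.01, SE 0.24, edgeR adjusted p = 0.0115), a call that limma on log2(TPM + 1) did not make. For both genes LPS replicate 4 was the lowest of the LPS libraries. For Nfkbia it lay below PBS replicate 1 in TPM, while in CPM every LPS library lay above every PBS library.

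A few acute phase genes rose from very low levels. Of 18 tested genes of the Stat3 and acute phase list, 4 were called higher and 3 lower, against 4.52% and 8.26% of all genes. Their median log2 change was 0.20. Without LPS replicate 4, 7 were called higher, and without PBS replicate 1 or 2, 1 was called lower. Saa3, a serum amyloid A protein (ENSMUSG00000040026, chromosome 7, 46711998 to 46715700), had 14.2, 6.02, 8.71 and 9.1 TPM after LPS, against 0.36, 0.18, 0 and 0 TPM after PBS, from 18 to 89 reads per LPS library and 0 to 2 per PBS library. Its fitted change (log2 change 5.88, SE 0.89, edgeR adjusted p = 0.000528) depends on the small count added to each library. Lcn2, which withholds iron from bacteria, had 37, 33.5, 42.1 and 34.6 TPM after LPS, against 1, 0.2, 3.11 and 7.86 TPM after PBS (log2 change 3.84, SE 0.66, edgeR adjusted p = 0.00139). Its LPS values were close together, while its PBS values were widely spread and highest in PBS replicate 4. Lrg1, a secreted glycoprotein, had 1.45, 2.22, 2.16 and 0.27 TPM after LPS, against 0.12, 0.06, 0 and 0.19 TPM after PBS (log2 change 4.24, SE 0.75, edgeR adjusted p = 0.00171), so that LPS replicate 4 was nearer the PBS libraries than the other LPS libraries. Il6, an inducer of the acute phase, had 1.38, 1.44, 1.37 and 1.73 TPM after LPS, against 0.14, 0.03, 0.77 and 0.43 TPM after PBS (log2 change 2.68, SE 0.65, edgeR adjusted p = 0.0132), and was not called by edgeR on the 8 experienced libraries alone. Stat3, the transcription factor of the interleukin-6 response, had 102, 80.8, 78.9 and 104 TPM after LPS, against 126, 96.4, 96.5 and 79.5 TPM after PBS and did not pass (log2 change −0.02, SE 0.16, edgeR adjusted p = 0.961). Socs3, its feedback inhibitor, had 43.2, 38, 40.2 and 16.8 TPM after LPS, against 37.4, 19.1, 10.8 and 7.28 TPM after PBS. The groups overlap and the change did not pass with all libraries (log2 change 1.07, SE 0.38, edgeR adjusted p = 0.0727), whereas it was called without LPS replicate 4 (1.32) or PBS replicate 1 (1.62).

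Interferon-induced genes rose in part. Of 36, 8 were called higher and 0 lower, against 4.52% and 8.26% of all genes, and 30 had a positive sign (median log2 change 0.47). Without LPS replicate 4 the counts were 8 and 1 and the median 0.30, and without that library and PBS replicates 3 and 4, 8 and 0 and 0.20. Limma voom with sample quality weights called 13 higher and 5 lower. Ifitm3, which hinders the fusion of viruses with cell membranes (ENSMUSG00000025492, chromosome 7, 141009586 to 141010770), had 1002, 1049, 899 and 948 TPM after LPS, against 279, 396, 178 and 335 TPM after PBS. The groups lie far apart and LPS replicate 4 was inside the range of the other LPS libraries (log2 change 1.88, SE 0.24, edgeR adjusted p = 0.00012). Its relative Ifitm1, also a marker of stem cells, had 1341, 1595, 1481 and 761 TPM after LPS, against 398, 395, 219 and 197 TPM after PBS (log2 change 2.26, SE 0.35, edgeR adjusted p = 0.000665). Irf7, the transcription factor that amplifies interferon production, had 54.4, 45.5, 37.8 and 64.6 TPM after LPS, against 18, 25.7, 10.7 and 20.3 TPM after PBS (log2 change 1.69, SE 0.30, edgeR adjusted p = 0.00184). Bst2, which tethers budding virus, had 116, 137, 126 and 66.5 TPM after LPS, against 54.5, 48.2, 25 and 36.2 TPM after PBS (log2 change 1.62, SE 0.27, edgeR adjusted p = 0.000944). Reads of the Ifitm genes, like those of other near-identical families here, can be shared between copies.

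The promoters of the called member with the lowest p of each of these 4 lists are shown so that the letters which NF-κB, interferon and AP-1 factors are known to bind can be read in them. They come from RefSeq on GRCm38.p6, cover up to 250 bases before the annotated start and leave out bases that GENCODE annotates as exon. All lie on the minus strand and are written 5′ to 3′ on the gene's strand. Capitals mark matches, on either strand, to 4 motifs: the interferon-stimulated response element (GAAANNGAAA), the κB site (by its 10-base consensus, with degenerate positions), the STAT site (TTCNNNGAA) and the AP-1 site (TGANTCA). No 2 matches overlap.
Cxcl10, chr5:92348890-92349139: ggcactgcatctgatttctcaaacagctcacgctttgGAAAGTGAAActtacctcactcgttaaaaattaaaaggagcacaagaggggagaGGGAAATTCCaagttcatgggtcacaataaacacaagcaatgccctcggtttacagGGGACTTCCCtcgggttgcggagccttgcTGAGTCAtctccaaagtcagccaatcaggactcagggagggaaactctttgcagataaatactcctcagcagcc
Tnfaip3, chr10:19015411-19015547: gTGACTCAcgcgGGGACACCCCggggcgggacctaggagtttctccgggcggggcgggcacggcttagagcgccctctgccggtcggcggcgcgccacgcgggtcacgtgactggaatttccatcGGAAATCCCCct
Ifitm3, chr7:141010771-141010994: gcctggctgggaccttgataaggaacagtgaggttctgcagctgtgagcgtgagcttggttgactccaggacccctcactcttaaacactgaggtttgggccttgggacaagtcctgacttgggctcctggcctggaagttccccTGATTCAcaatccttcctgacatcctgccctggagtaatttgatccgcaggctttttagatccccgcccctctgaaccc
Saa3, chr7:46715701-46715926: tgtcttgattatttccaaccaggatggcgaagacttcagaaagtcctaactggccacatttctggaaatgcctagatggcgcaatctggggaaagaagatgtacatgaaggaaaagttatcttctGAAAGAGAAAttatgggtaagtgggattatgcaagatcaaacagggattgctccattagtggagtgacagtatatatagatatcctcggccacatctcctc
The Cxcl10 promoter held the interferon element at −213 to −204 from the start, κB sites at −159 to −150 and −103 to −94, and an AP-1 site at −74 to −68. The Tnfaip3 promoter held κB sites at −125 to −116 and −12 to −3 and an AP-1 site at −136 to −130. Ifitm3 had an AP-1 site alone (−105 to −99), and Saa3 the interferon element alone (−125 to −116). No STAT site was among these letters. Over the 250 bases before the start of 27025 RefSeq genes, 3.04% held the interferon element, 3.75% a κB site, 7.18% a STAT site and 6.87% an AP-1 site. Among the 10296 tested genes with a promoter in the table the shares were 2.76%, 4.31%, 5.91% and 4.15%. Of the 520 genes called higher with a promoter, 5.19% held the interferon element, 5.00% a κB site, 7.88% a STAT site and 4.81% an AP-1 site, and of the 921 called lower, 2.50%, 4.99%, 5.21% and 4.89%. A match is a string of letters and not a measured site.

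Receptors for growth-promoting cytokines changed in opposite directions. Of 30 cytokine receptor genes, 3 were called higher and 7 lower (3 lower without PBS replicate 1), against 4.52% and 8.26% of all genes. Their median log2 change was −0.29. Csf2rb2, a β chain dedicated to interleukin-3 in the mouse (ENSMUSG00000071714, chromosome 15, 78282507 to 78305721), had 37.3, 32.7, 31.2 and 47.4 TPM after LPS, against 4.93, 3.85, 1.8 and 2.81 TPM after PBS. All 4 LPS libraries were high, LPS replicate 4 the highest (log2 change 3.60, SE 0.32, edgeR adjusted p = 5.61e-06). Csf2rb, the common β chain for interleukin-3, interleukin-5 and granulocyte-macrophage colony-stimulating factor, had 91, 80.1, 82.4 and 61.2 TPM after LPS, against 24.8, 18.4, 20.9 and 16.3 TPM after PBS (log2 change 2.11, SE 0.20, edgeR adjusted p = 9.86e-06). The genes are neighbouring near-identical copies, so reads can be divided between them. Flt3, the receptor of early lymphoid-primed progenitors, had 24, 24.5, 21 and 8.56 TPM after LPS, against 132, 101, 72.4 and 40.6 TPM after PBS, with LPS replicate 4 and PBS replicate 4 the lowest of their groups (log2 change −1.98, SE 0.31, edgeR adjusted p = 0.000705). Ifnar1, a subunit of the type I interferon receptor, was called lower (log2 change −0.61, SE 0.13, edgeR adjusted p = 0.00507), and in CPM every LPS library lay below every PBS library. In TPM, by contrast, LPS replicate 4 was higher than every PBS library (22.1, 22.1, 20.2 and 40.2 TPM after LPS, against 39.6, 34.7, 35.4 and 28.3 TPM after PBS).

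Basophil and mast cell genes rose. Of 17 tested, 9 were called higher and 1, Ccl9, lower, against 4.52% and 8.26% of all genes, with a median log2 change of 1.33. Without LPS replicate 1, LPS replicate 3, PBS replicate 1 or PBS replicate 2, 4, 4, 4 and 3 were called higher. Ms4a2 and Fcer1a encode the β and α chains of the receptor by which mast cells bind immunoglobulin E. Ms4a2 had 39, 37, 54.2 and 66.1 TPM after LPS, against 1.42, 2.68, 5.22 and 14.4 TPM after PBS (log2 change 3.07, SE 0.56, edgeR adjusted p = 0.00205), and Fcer1a had 35, 31.4, 29.9 and 17.6 TPM after LPS, against 4.42, 2.67, 6.02 and 4.37 TPM after PBS (log2 change 2.88, SE 0.32, edgeR adjusted p = 5.43e-05). Gzmb, a granule protease of mast cells and cytotoxic lymphocytes, had 15.9, 17.3, 22.6 and 29.4 TPM after LPS, against 0.82, 1.15, 3.64 and 4.29 TPM after PBS (log2 change 3.27, SE 0.61, edgeR adjusted p = 0.00241). PBS replicates 3 and 4 were above PBS replicates 1 and 2 for Ms4a2 and Gzmb, and both stayed below all LPS libraries.

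Megakaryocyte and platelet genes rose as well, with 12 of 28 called higher, 0 lower and a median log2 change of 0.83 (8 to 13 called when 1 experienced library was left out). The shares of all genes were 4.52% higher and 8.26% lower. Itga2b, the integrin αIIb of platelets and of megakaryocyte-biased stem cells (ENSMUSG00000034664, chromosome 11, 102453297 to 102470122), had 281, 257, 234 and 202 TPM after LPS, against 79.3, 107, 87.1 and 71.5 TPM after PBS (log2 change 1.82, SE 0.25, edgeR adjusted p = 0.000265). Its partner Itgb3 had 33.5, 26.6, 22.1 and 47.2 TPM after LPS, against 7.13, 8.7, 9.51 and 5.86 TPM after PBS (log2 change 2.17, SE 0.24, edgeR adjusted p = 5.95e-05), and the platelet glycoprotein genes Gp1bb and Gp5, for parts of the von Willebrand factor receptor, had log2 changes of 2.00, SE 0.28 and 1.05, SE 0.17. None of these 4 genes overlapped between groups in TPM. Other platelet markers did not pass. Pf4, platelet factor 4, had 141, 124, 71.5 and 37.6 TPM after LPS, against 26.6, 47.8, 78.8 and 49.2 TPM after PBS, and Vwf, von Willebrand factor, had 23.9, 16.8, 14.2 and 15.7 TPM after LPS, against 8.62, 13.8, 21.1 and 10.5 TPM after PBS. Both overlap between groups and did not pass (1.08, edgeR adjusted p = 0.074, and 0.61, adjusted p = 0.0641), whereas both were called without LPS replicate 4 (1.33 and 0.67). Gata2, a transcription factor shared by stem cells, mast cells and megakaryocyte progenitors, had 130, 118, 140 and 166 TPM after LPS, against 93.9, 113, 82.7 and 107 TPM after PBS and was called higher (log2 change 0.61, SE 0.17, edgeR adjusted p = 0.0265), but not without LPS replicate 3 (0.61), PBS replicate 1 (0.56) or PBS replicate 3 (0.53). The call was also lost with LPS replicate 4 and PBS replicates 3 and 4 all left out (0.54), and with limma on log2(TPM + 1) (0.48).

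Lymphoid-primed genes fell. Of 26, 14 were called lower and 0 higher, against 8.26% and 4.52% of all genes. A negative sign was found in 25, and the median log2 change was −1.77. Dntt, the terminal transferase active during receptor gene rearrangement (ENSMUSG00000025014, chromosome 19, 41029275 to 41059525), had 6.31, 5.39, 7.83 and 3.43 TPM after LPS, against 158, 146, 81.9 and 29.4 TPM after PBS. The PBS libraries were widely spread, and the lowest, PBS replicate 4, was still above every LPS library (log2 change −3.97, SE 0.42, edgeR adjusted p = 3.23e-05). Lsp1, a leukocyte cytoskeletal protein (ENSMUSG00000018819, chromosome 7, 142460809 to 142494867), had 25, 21.1, 23.9 and 14.5 TPM after LPS, against 124, 120, 163 and 90.7 TPM after PBS (log2 change −2.22, SE 0.17, edgeR adjusted p = 3.09e-06). Gimap6, a GTPase of lymphocyte survival, and Cnn3, a calponin, had log2 changes of −1.98, SE 0.25 and −1.53, SE 0.17.

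A few B cell transcripts fell. Of 13 tested, 4 were called lower and 0 higher, against 8.26% and 4.52% of all genes, with a median log2 change of −2.40. Ighm, the immunoglobulin μ chain, whose locus is also transcribed in uncommitted progenitors, had 32.4, 26.5, 11.9 and 15.1 TPM after LPS, against 467, 223, 655 and 90 TPM after PBS (log2 change −3.89, SE 0.54, edgeR adjusted p = 0.000301). Jchain, which joins secreted antibodies, had 2.27, 2.14, 0.5 and 2.25 TPM after LPS, against 31.2, 15.9, 68.1 and 8.04 TPM after PBS (log2 change −4.01, SE 0.70, edgeR adjusted p = 0.00161). Igkc, the κ light chain, had 74.8, 48.4, 15.7 and 174 TPM after LPS, against 900, 246, 1392 and 157 TPM after PBS. LPS replicate 4 was above PBS replicate 4, so the groups overlap, and the call (log2 change −2.89, SE 0.66, edgeR adjusted p = 0.00938) ended in a fit to the 8 experienced libraries alone (edgeR). Blnk, the B cell linker, had 0.23, 0.16, 0.42 and 0 TPM after LPS, against 3.8, 2.35, 1.14 and 1.5 TPM after PBS (log2 change −3.33, SE 0.60, edgeR adjusted p = 0.00192). The summed TPM of the 17 listed B and plasma cell genes was 173 to 530 in LPS libraries and 692 to 2400 in PBS libraries, and the part of mature B cells in the fall was not tested.

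Genes of stem cell identity changed in both directions, more of them lower. Of 29, 11 were called lower and 4 higher, against 8.26% and 4.52% of all genes, with a median log2 change of −0.64. When 1 experienced library was left out, 9 to 14 were lower. Hlf, a transcription factor of quiescent stem cells (ENSMUSG00000003949, chromosome 11, 90336536 to 90390895), had 20, 17.8, 17.7 and 40.8 TPM after LPS, against 114, 120, 86.4 and 108 TPM after PBS. LPS replicate 4 was the highest LPS library and still under every PBS library (log2 change −2.10, SE 0.26, edgeR adjusted p = 0.000117). Mecom, a transcription factor required for stem cell maintenance (ENSMUSG00000027684, chromosome 3, 29951296 to 30548008), had 9.43, 9.89, 8.2 and 16.4 TPM after LPS, against 41.3, 37.5, 24.7 and 31.3 TPM after PBS (log2 change −1.84, SE 0.20, edgeR adjusted p = 4.64e-05), and its relative Prdm16 had 2.14, 2.8, 2.39 and 1.15 TPM after LPS, against 7.98, 5.55, 10.2 and 3.79 TPM after PBS (log2 change −1.67, SE 0.24, edgeR adjusted p = 0.000341). Procr, a protein C receptor found on long-lived stem cells, had 3.3, 4.02, 3.49 and 9.01 TPM after LPS, against 20, 23.9, 6.95 and 17.1 TPM after PBS (log2 change −1.91, SE 0.34, edgeR adjusted p = 0.00169), and LPS replicate 4 exceeded PBS replicate 3. Robo4, a guidance receptor of endothelium and stem cells, had 0.97, 0.82, 0.81 and 1.35 TPM after LPS, against 11.4, 11.4, 5.97 and 6.31 TPM after PBS (log2 change −3.05, SE 0.25, edgeR adjusted p = 3.09e-06). Ly6a, which encodes Sca1 (ENSMUSG00000075602, chromosome 15, 74994877 to 74998031), went the other way, with 196, 201, 164 and 130 TPM after LPS, against 71.7, 78.1, 26.3 and 38.5 TPM after PBS (log2 change 1.87, SE 0.34, edgeR adjusted p = 0.00207).

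Among the surface markers used to subdivide HSPCs, Cd34 had 197, 206, 173 and 193 TPM after LPS, against 436, 415, 417 and 310 TPM after PBS and fell (log2 change −0.90, SE 0.17, edgeR adjusted p = 0.00265). Slamf1 and Cd48, the pair that separates stem cells from multipotent progenitors, did not pass (0.22, SE 0.25, adjusted p = 0.626, and 0.22, SE 0.23, adjusted p = 0.576, edgeR). Kit did not pass with all libraries (log2 change −0.44, SE 0.16, edgeR adjusted p = 0.0835) and was called lower without LPS replicate 4 (−0.50), the LPS library in which it was highest. Ptprc was called lower (log2 change −0.52, SE 0.14, edgeR adjusted p = 0.0262), but the call ended without LPS replicate 1, 2 or 3 (−0.48, −0.54 and −0.47) and without PBS replicate 1, 2 or 3 (−0.43, −0.54 and −0.48).

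The homeobox genes that MLL fusions drive, and that are also active in normal HSPCs, fell in part. Of 21 genes of this programme, 10 were called lower and 1 higher, against 8.26% and 4.52% of all genes, with a median log2 change of −1.04. Hoxa9 had 33.7, 32.8, 30.7 and 36.5 TPM after LPS, against 74.1, 77.1, 51.3 and 72.2 TPM after PBS (log2 change −0.98, SE 0.15, edgeR adjusted p = 0.000707) and Hoxa3 had 1.61, 2.37, 2.82 and 4.53 TPM after LPS, against 16.6, 14.1, 8.57 and 11.9 TPM after PBS (log2 change −2.04, SE 0.32, edgeR adjusted p = 0.000727), with no overlap in either. Eya1, a transcriptional coactivator, was called lower (log2 change −1.19, SE 0.21, edgeR adjusted p = 0.00177) with 11.9, 11.9, 10.8 and 39 TPM after LPS, against 35.7, 33.8, 25.8 and 41.5 TPM after PBS. In TPM LPS replicate 4 alone was in the PBS range, while in CPM every LPS library lay below every PBS library. Of 23 quiescence genes, 4 were called lower (7 without LPS replicate 4) and 1 higher (median −0.39), against 8.26% and 4.52% of all genes. Txnip, the thioredoxin inhibitor, had 102, 100, 99.7 and 256 TPM after LPS, against 400, 367, 260 and 323 TPM after PBS (log2 change −1.31, SE 0.22, edgeR adjusted p = 0.00119) and Foxo3, a transcription factor that protects resting stem cells, had 41.6, 40.5, 38.5 and 37.8 TPM after LPS, against 74.9, 74.4, 67.1 and 55.7 TPM after PBS (log2 change −0.68, SE 0.15, edgeR adjusted p = 0.00719). LPS replicate 4 was at more than 2-fold the other LPS libraries for Txnip and just under them for Foxo3.

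**Figure D2:**
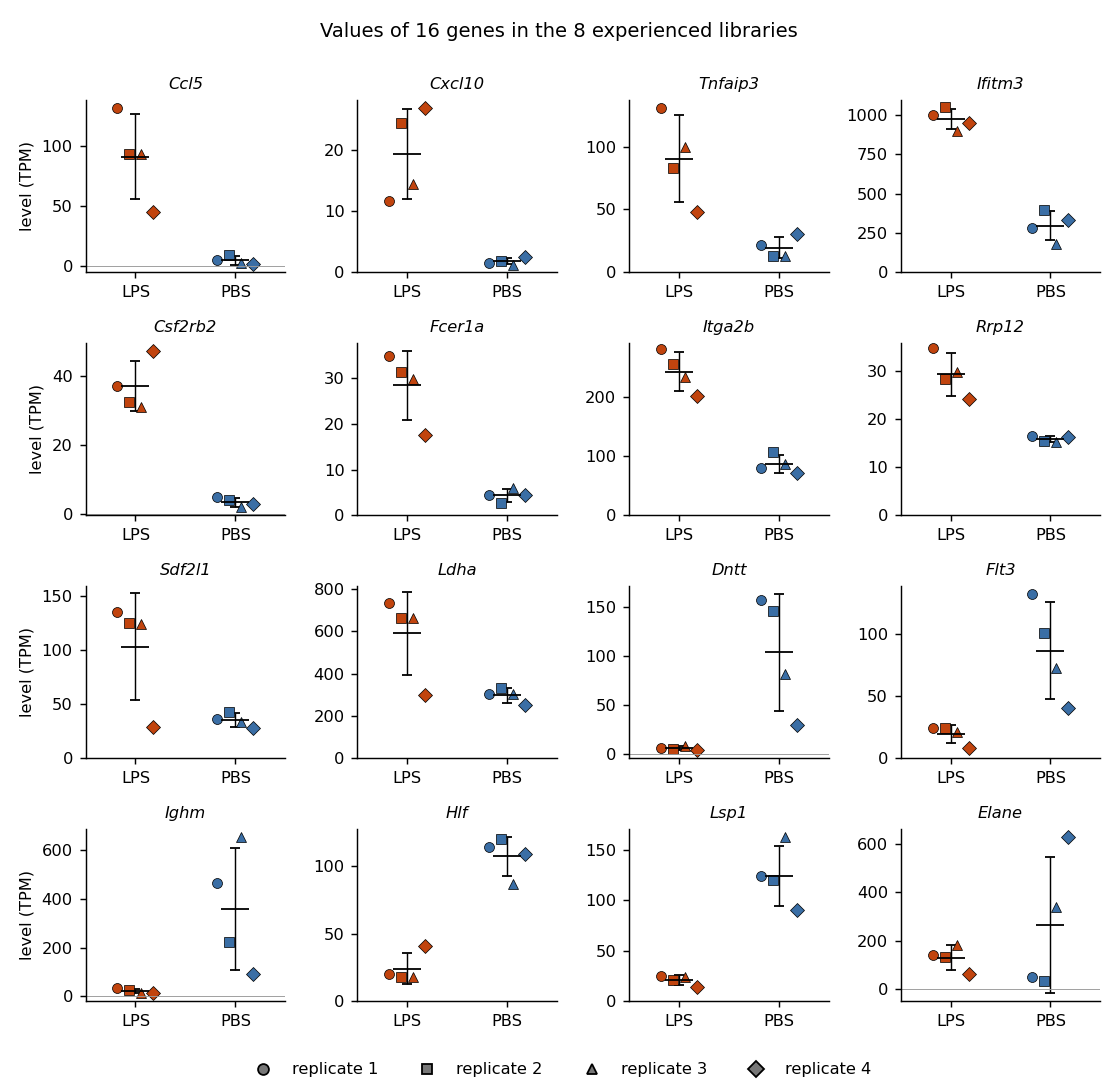
Levels in TPM (y axis, with a grey line at 0 where the axis runs below it) of 16 genes in the 4 LPS and 4 PBS libraries of experienced mice. Symbols mark the replicate number, and the bar and whiskers give the mean ± SD (n = 4). LPS replicate 4 lies with the other LPS libraries for Ifitm3, Csf2rb2 and Dntt and with the PBS libraries for Sdf2l1 and Ldha, and Elane is highest in PBS replicates 3 and 4.

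The 12 largest rises and the 12 largest falls, among called genes of a mean level above a log2 CPM of 2 and without overlap between groups in CPM, also held genes outside these lists. Among the rises, Kcnj5, a potassium channel, had 6.24, 7.1, 3.99 and 5.14 TPM after LPS, against 0.3, 0.34, 0.66 and 1.23 TPM after PBS (log2 change 3.29, SE 0.59, edgeR adjusted p = 0.00184). Cntnap1, a neuronal adhesion protein, had 3.2, 3.08, 2.76 and 2.54 TPM after LPS, against 0.31, 0.31, 0.49 and 0.29 TPM after PBS (log2 change 3.17, SE 0.26, edgeR adjusted p = 3.09e-06), which was the same within a narrow range in all 4 LPS libraries. Serpina3f, a protease inhibitor, had 24.7, 18.8, 20.3 and 33.7 TPM after LPS, against 3.77, 4.07, 3.17 and 2.65 TPM after PBS (log2 change 2.99, SE 0.24, edgeR adjusted p = 3.09e-06), and Clca3a1, one of several near-identical copies of a chloride channel regulator, had 41.8, 30.2, 31.5 and 65.5 TPM after LPS, against 4.71, 5.07, 7.38 and 10.2 TPM after PBS (log2 change 2.72, SE 0.31, edgeR adjusted p = 6.06e-05). CT010467.1, annotated as ribosomal RNA, owed its value to 1 library. It had 3.79, 3.93, 67.8 and 9.42 TPM after LPS, against 0.08, 2.54, 4.05 and 3.22 TPM after PBS, so the groups overlap in TPM, and the change (log2 change 3.30, SE 1.05, edgeR adjusted p = 0.0493) was no longer called without LPS replicate 3 (1.32) or without PBS replicate 1, 2, 3 or 4 (2.88 to 3.63).

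Among the falls, Siglecg, an inhibitory lectin of B cells, had 1.12, 2.96, 1.34 and 0.43 TPM after LPS, against 11.5, 7.07, 7.36 and 3.94 TPM after PBS (log2 change −2.61, SE 0.31, edgeR adjusted p = 7.07e-05). Tle2, a Groucho-family corepressor, had 3.17, 7.17, 3.67 and 1.27 TPM after LPS, against 47.5, 33.5, 18.4 and 21.9 TPM after PBS (log2 change −2.99, SE 0.31, edgeR adjusted p = 2.65e-05). Sytl1, a regulator of vesicle transport, had 1.23, 1.69, 1.71 and 0.09 TPM after LPS, against 18.7, 16, 7.8 and 4.98 TPM after PBS (log2 change −3.14, SE 0.57, edgeR adjusted p = 0.00198). Its lowest value, like those of Tle2 and Siglecg, was in LPS replicate 4. Paqr5, a membrane progestin receptor, fell by 3.12 on the log2 scale (SE 0.33), Gprc5b, an orphan receptor, by 2.85 (SE 0.28), Scube3, a secreted signalling protein, by 2.77 (SE 0.36), Zfp532, a zinc finger protein, by 2.77 (SE 0.24) and Bpifc by 2.93 (SE 0.42). In TPM none of these 8 genes overlapped between groups.

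Genes for making ribosomes rose together. Of 36 ribosome biogenesis genes, 24 were called higher and 0 lower, against 4.52% and 8.26% of all genes. All 36 had a positive sign, with a median log2 change of 0.66. Without LPS replicate 1, 2 or 3, 13, 14 and 15 were called higher, without PBS replicate 1 or 2, 10 and 14, and limma on log2(TPM + 1) called 3. Rrp12, a factor for export of ribosomal subunits, had 34.9, 28.5, 29.9 and 24.1 TPM after LPS, against 16.5, 15.5, 15.3 and 16.3 TPM after PBS (log2 change 1.02, SE 0.15, edgeR adjusted p = 0.000474). Heatr1, which supports ribosomal RNA transcription, had 45.2, 42.3, 41.4 and 33.8 TPM after LPS, against 26.4, 24.1, 28.6 and 23.7 TPM after PBS (log2 change 0.80, SE 0.15, edgeR adjusted p = 0.00206), and Wdr75 and Nop16, nucleolar proteins, had log2 changes of 0.67, SE 0.13 and 0.82, SE 0.16. Of 45 genes for the ribosomal proteins themselves, 1 was called higher (Rpl38) and 0 lower, 42 had a positive sign and the median was 0.20. Their score, the mean log2 CPM minus the PBS mean, was 0.37, 0.39, 0.38 and −0.29 in LPS replicates 1 to 4, and 3 were called higher without LPS replicate 4. Myc, the transcription factor that drives ribosome production, had 391, 370, 392 and 521 TPM after LPS, against 377, 409, 359 and 438 TPM after PBS and did not pass (log2 change 0.27, SE 0.15, edgeR adjusted p = 0.254).

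Nearly all cell cycle genes listed did not pass the test. The 1 called higher and the 1 called lower, both cell cycle inhibitors, are fewer than the shares of all genes (4.52% higher and 8.26% lower). Of 29 genes of the G1/S phase and 29 of mitosis, 0 were called in either direction by edgeR, with medians of 0.21 and 0.29. At an unadjusted p under 0.05, 5 and 6 were higher and 0 lower. DESeq2 called 0 and 1, limma on log2(TPM + 1) 0 and 0, voom with quality weights 19 and 18 higher, and edgeR without LPS replicate 4, 5 and 4 higher. Of 11 CDK inhibitors and D-type cyclins, 1 was called higher (Cdkn1a, the inhibitor p21) and 1 lower (Cdkn1c, the inhibitor p57), with a median of 0.025. The higher call ended without LPS replicate 1, 2 or 3 or PBS replicate 3, and the lower one without LPS replicate 3 or PBS replicate 2, while 2 were called lower without LPS replicate 4. Mki67, a proliferation marker, had 101, 96, 91.3 and 143 TPM after LPS, against 83.1, 102, 112 and 130 TPM after PBS (log2 change 0.13, SE 0.28, edgeR adjusted p = 0.809), and Cdk6, the kinase that lets stem cells leave quiescence, had 303, 287, 304 and 278 TPM after LPS, against 427, 321, 306 and 229 TPM after PBS (log2 change 0.09, SE 0.15, edgeR adjusted p = 0.751).

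Genes of protein turnover and folding rose in part, with 1 that fell. Of 27 proteasome subunits, 14 were called higher and 0 lower (median 0.61, all 27 positive), against 4.52% of all genes. The count was 24 without LPS replicate 4, 6 and 8 without LPS replicate 1 or 2, and 5 and 8 without PBS replicate 1 or 2. Psmc5, an ATPase of the proteasome cap, had 99.7, 105, 97 and 78.4 TPM after LPS, against 71.7, 59, 55.3 and 64.5 TPM after PBS (log2 change 0.75, SE 0.17, edgeR adjusted p = 0.00732), and Psma2, Psmc2 and Psmd1 changed by 0.78, SE 0.18, 0.68, SE 0.16 and 0.61, SE 0.14. Of 21 chaperones and sensors of the endoplasmic reticulum, 9 were called higher (5 without LPS replicate 1 or 2 or PBS replicate 1 or 2) and 1 lower (median 0.64). Hyou1, a chaperone of that compartment, had 148, 133, 141 and 90.2 TPM after LPS, against 60.3, 66.2, 69.8 and 65.3 TPM after PBS (log2 change 1.09, SE 0.19, edgeR adjusted p = 0.0015). Sdf2l1 had 135, 125, 124 and 29.4 TPM after LPS, against 36.8, 43.1, 33.1 and 27.9 TPM after PBS (log2 change 1.73, SE 0.38, edgeR adjusted p = 0.00694), with LPS replicate 4 inside the PBS range. Manf, a secreted stress factor, had a log2 change of 1.03, SE 0.22, and Ern1, the stress sensor, fell (−0.75, SE 0.16). Of 16 heat shock chaperones, 4 were called higher and 0 lower (median 0.62). The count was 2, 1 and 1 without LPS replicate 1, 2 or 3, 7 without LPS replicate 4, and 0 without PBS replicate 1 or 2. Hspa8, the constitutive Hsp70, had 3845, 3138, 3334 and 4091 TPM after LPS, against 2218, 2378, 2070 and 2617 TPM after PBS (log2 change 0.62, SE 0.15, edgeR adjusted p = 0.0145), a call that ended without PBS replicate 1 (0.54) or 2 (0.59). Limma on log2(TPM + 1) called 2 proteasome, 2 endoplasmic reticulum and 0 heat shock genes higher.

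Genes of amino acid and energy metabolism rose in part. Of 23 targets of Atf4, the transcription factor of the integrated stress response, 10 were called higher (6 without LPS replicate 1) and 0 lower (median 0.65). The shares of all genes were 4.52% higher and 8.26% lower. Slc7a5, a transporter of large amino acids, had 117, 91.5, 94.3 and 67 TPM after LPS, against 44.1, 40.3, 42.7 and 58.2 TPM after PBS (log2 change 1.12, SE 0.21, edgeR adjusted p = 0.00294). Psat1 and Shmt2, of serine and glycine synthesis, changed by 0.86, SE 0.17 and 0.65, SE 0.14, and Mthfd2, of mitochondrial folate metabolism, had 32.4, 26.1, 28.6 and 10.2 TPM after LPS, against 11.2, 9.97, 13.4 and 9.17 TPM after PBS (log2 change 1.302, SE 0.30, edgeR adjusted p = 0.00888), with LPS replicate 4 again among the PBS values. Of 23 glycolysis genes, 6 were called higher and 2 lower (median 0.37), and 11 and 2 without LPS replicate 4. The lower count lies near the share of all genes. Ldha, lactate dehydrogenase A, had 735, 663, 663 and 300 TPM after LPS, against 304, 331, 303 and 250 TPM after PBS (log2 change 1.18, SE 0.24, edgeR adjusted p = 0.00495), Pfkp, a phosphofructokinase, changed by 0.87, SE 0.15, and Aldoc, an aldolase form, fell (−2.76, SE 0.34). Of 35 nuclear genes of oxidative phosphorylation, 7 were called higher and 0 lower, and all 35 had a positive sign (median 0.50). The count was 27 without LPS replicate 4, 2 without LPS replicate 1 and 0 without LPS replicate 2 or 3 or PBS replicate 1, 2 or 3. Cox5b, a cytochrome c oxidase subunit, had 632, 680, 617 and 278 TPM after LPS, against 357, 319, 187 and 263 TPM after PBS (log2 change 0.86, SE 0.23, edgeR adjusted p = 0.0193), and the call ended without LPS replicate 2 (0.76) or 3 (0.82) or PBS replicate 1, 2 or 3 (0.86, 0.87 and 0.75). Of the 13 protein genes of the mitochondrial genome, 0 were called by edgeR, DESeq2 or limma on log2(TPM + 1), and 0 had an unadjusted p under 0.05 (median 0.31), while voom with quality weights called 3 lower. Without LPS replicate 4, 2 of them were called lower by edgeR and the median was −0.84, and without the 3 atypical libraries 1 was (median −0.27). Of the calls named so far for growth, folding and metabolism, limma on log2(TPM + 1) did not make those of Nop16, Heatr1, Sdf2l1, Shmt2, Mthfd2, Pfkp, Ldha, Cox5b, Psmc2, Psmc5, Psmd1 and Hspa8.

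These lists did not move alike in every library. Scored as the mean log2 CPM of a list's members minus the PBS mean, the nuclear oxidative phosphorylation genes were at 0.67, 0.69, 0.69 and −0.18 in LPS replicates 1 to 4, the endoplasmic reticulum chaperones at 0.60, 0.68, 0.70 and −0.05, the acute phase list at 1.06, 1.02, 1.15 and −0.02 and the Atf4 targets at 0.80, 0.62, 0.73 and −0.00. LPS replicate 4 was thus at the PBS mean or below it for these 4 lists. For the lymphoid-primed genes the same 4 libraries were at −1.53, −1.61, −1.38 and −1.76, for ribosome biogenesis at 0.68, 0.67, 0.71 and 0.57 and for interferon-induced genes at 0.45, 0.62, 0.46 and 0.97, so LPS replicate 4 lay with its group or beyond it. The mitochondrially encoded genes ran opposite to the nuclear ones, at −0.57, −0.29, −0.50 and 1.60 in LPS libraries. With all mitochondrial genes left out of the tables, 825 genes were called higher and 1131 lower.

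**Figure D3:**
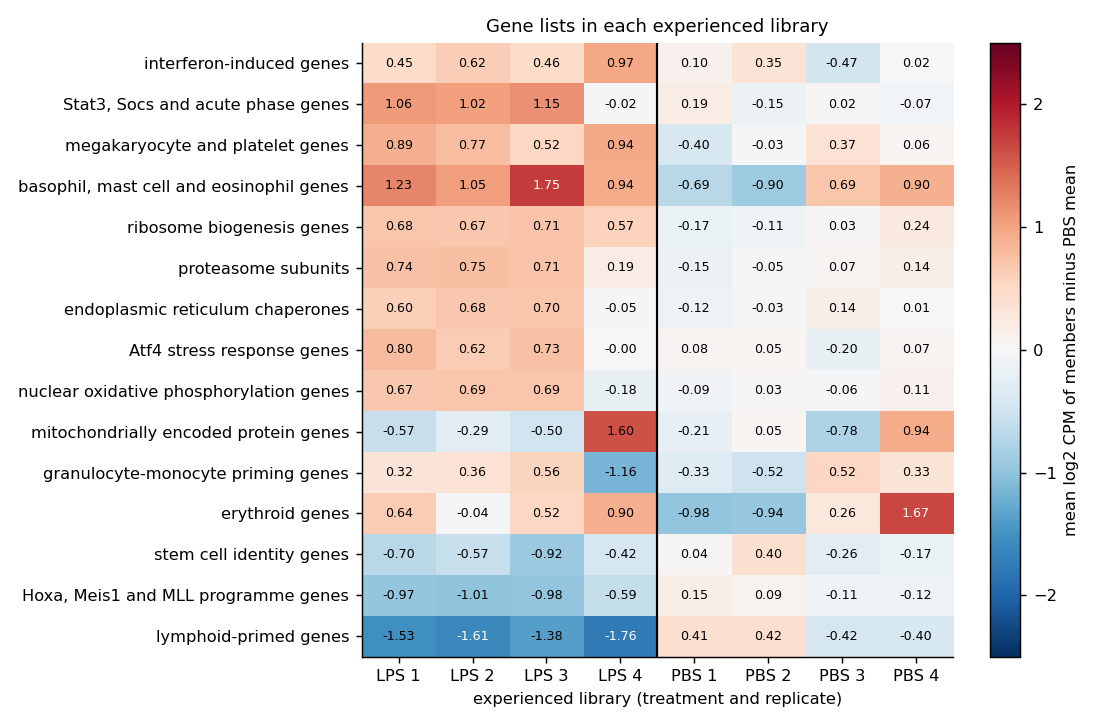
Each cell gives the mean log2 CPM of a list's tested members in 1 experienced library (x axis, LPS 1 to 4 left and PBS 1 to 4 right) minus the mean of the 4 PBS libraries. Red is above and blue below that mean. Lymphoid-primed genes were at −1.38 to −1.76 in all LPS libraries, whereas oxidative phosphorylation genes were at −0.18 in LPS 4 and 0.67 to 0.69 in LPS 1 to 3.

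To see where an atypical library lies without having shaped the calls, genes called without it were looked up in it. Of the 1447 genes called higher without LPS replicate 4 that were tested throughout, 55.1% were above the PBS mean in LPS replicate 4 and 39.2% above every PBS library, and of the 1689 called lower, 79.9% were below the PBS mean and 66.6% below every PBS library. For LPS replicates 1 to 3 at least 99.4% lay on the LPS side and at least 92.5% beyond every PBS library. PBS replicate 4 lay on the PBS side of the LPS mean for 84.5% of 970 genes called higher without it and 94.4% of 1304 called lower, PBS replicate 3 for 95.7% and 96.0%, and PBS replicates 1 and 2 for 99.3% or more. Within its group LPS replicate 4 stood apart from the other 3 by Dixon's criterion at 20.9% of genes (1208 above and 1965 below), and the other 7 libraries each at 0.316% to 2.37%. A call changed direction in none of the left-out fits: 0 genes called with all libraries were called the opposite way without any 1 library. Each of these fits shares every other library with the full one, so an opposite call was hardly possible.

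The number of calls depended on which library was left out. Without LPS replicate 4, 1456 genes were called higher and 1701 lower, and 643 of the 686 and 1138 of the 1254 were among them. Without PBS replicate 4 the counts were 972 and 1320. Without PBS replicate 1 they were 302 and 763, without PBS replicate 2, 321 and 787, and without PBS replicate 3, 534 and 1131. Without LPS replicate 1, 2 or 3 they were 328 and 828, 361 and 869, and 393 and 712. With LPS replicate 4 and PBS replicates 3 and 4 all left out, 1612 were called higher and 1820 lower.

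**Figure D4:**
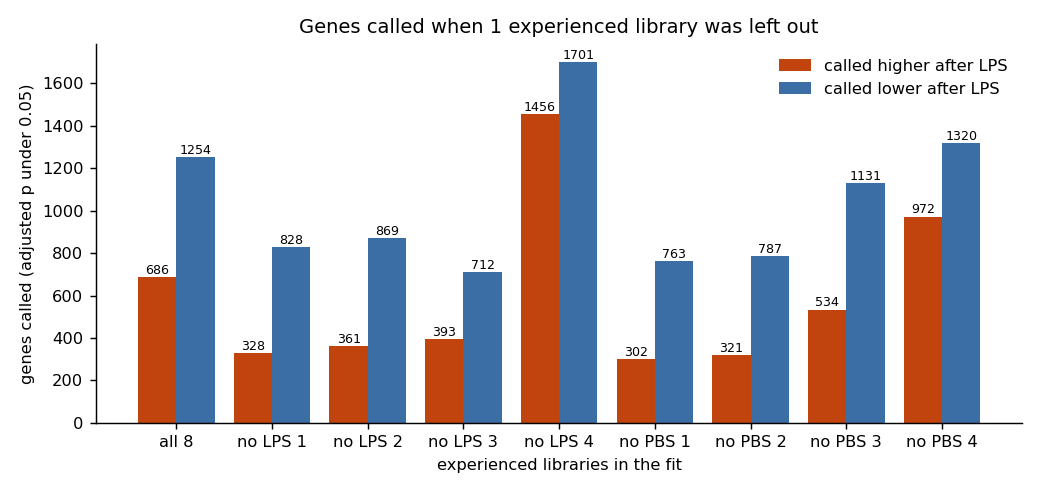
Number of genes called higher (orange-red) and lower (blue) after LPS in experienced mice (y axis, adjusted p under 0.05) with all 8 experienced libraries and with each left out in turn (x axis). The counts were 686 and 1254 with all, were most numerous without LPS replicate 4 (1456 and 1701) and had their fewest higher calls without PBS replicate 1 (302).

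PBS replicates 3 and 4 were above PBS replicates 1 and 2 for genes of the granulocyte and erythroid lineages, and leaving out these libraries or LPS replicate 4 moved the counts for those lists. Elane, the neutrophil elastase of early granulocyte progenitors, had 142, 132, 184 and 61.3 TPM after LPS, against 50.1, 33.7, 340 and 628 TPM after PBS. It did not pass with all libraries (log2 change −0.87, SE 0.76, edgeR adjusted p = 0.502), and with LPS replicate 4 and PBS replicates 3 and 4 left out it was called higher, at 2.09. Gata1, the master factor of erythroid and megakaryocyte cells, had 51.4, 40.9, 48.1 and 58.9 TPM after LPS, against 12, 16.1, 39.7 and 75.8 TPM after PBS (log2 change 0.60, SE 0.47, edgeR adjusted p = 0.439), and was called higher without PBS replicate 4 (1.32) and without all 3 (2.02). Mpo, the myeloperoxidase of granulocyte progenitors, had 1277, 1285, 1377 and 853 TPM after LPS, against 628, 548, 1043 and 1675 TPM after PBS (log2 change 0.37, SE 0.40, edgeR adjusted p = 0.599), and 1.38 without the 3, which was called. Over the erythroid list, 1 of 28 genes was called higher and 2 lower with all libraries (median 0.021), and 6 and 2 without PBS replicate 4, against 16 and 2 without the 3 (median 2.15). With all libraries, 4.52% of all genes were called higher and 8.26% lower, and the erythroid counts lie near those shares. Tfrc, the transferrin receptor, was the one that rose in the full comparison, with 156, 121, 137 and 132 TPM after LPS, against 41, 32.6, 86.2 and 79.2 TPM after PBS (log2 change 1.68, SE 0.29, edgeR adjusted p = 0.00139), and Cnrip1 fell (−1.58, SE 0.24). The erythroid score was 0.64, −0.04, 0.52 and 0.90 in LPS libraries, against −0.98, −0.94, 0.26 and 1.67 in PBS libraries. Of 21 granulocyte-monocyte priming genes, 2 were called higher and 3 lower (median −0.026), 6 and 3 without LPS replicate 4, and 9 and 3 without the 3 libraries. Their score was 0.32, 0.36, 0.56 and −1.16 in LPS libraries, against −0.33, −0.52, 0.52 and 0.33 in PBS libraries. Ms4a3, a marker of granulocyte-monocyte progenitors, had 298, 275, 282 and 90.5 TPM after LPS, against 13.2, 12.9, 76.4 and 58.3 TPM after PBS (log2 change 2.71, SE 0.57, edgeR adjusted p = 0.00571) and 4.66 without the 3. Irf8, the factor of monocyte and dendritic cell fate, fell with 13.8, 15.4, 12.2 and 7.49 TPM after LPS, against 62.4, 38.1, 51.7 and 19.4 TPM after PBS (log2 change −1.66, SE 0.35, edgeR adjusted p = 0.00597).

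Most markers of the mature cells that a sort can carry along did not pass the test, except among dendritic cell genes. Over all genes, 4.52% were called higher and 8.26% lower. With all libraries, the lower calls of each list below exceeded that share, except for haemoglobin. The 17 listed mature neutrophil genes summed to 70.9 to 93.6 TPM in LPS libraries and 86.2 to 128 TPM in PBS libraries, and of 8 tested, 1 was called higher (Lcn2) and 2 lower. S100a8, an abundant neutrophil protein, had 6.68, 2.28, 2.83 and 9.34 TPM after LPS, against 9.08, 6.38, 38.8 and 41.6 TPM after PBS (log2 change −1.97, SE 0.66, edgeR adjusted p = 0.0599), and was called lower without LPS replicate 4 (−2.29) or PBS replicate 2 (−2.29). Itgam, the integrin CD11b of the lineage cocktail, had 2.28, 2.86, 2.18 and 2.23 TPM after LPS, against 18.4, 7.7, 11.8 and 13.4 TPM after PBS (log2 change −1.97, SE 0.24, edgeR adjusted p = 0.000108). The 20 monocyte and macrophage genes summed to 107 to 121 TPM after LPS and 182 to 325 TPM after PBS, with 0 of 17 called higher and 3 lower. Lyz2, lysozyme, had 46.4, 51.2, 40.2 and 29.9 TPM after LPS, against 133, 117, 136 and 71.5 TPM after PBS (log2 change −1.28, SE 0.21, edgeR adjusted p = 0.000797). Of 11 dendritic cell genes, 6 were called lower and 1 (Bst2) higher. The 6 include Irf8 and Flt3, the receptor of early lymphoid-primed progenitors, so not all are markers of mature cells alone. Clec9a, of cross-presenting dendritic cells, had 0.23, 0.12, 0.17 and 0 TPM after LPS, against 1.35, 0.8, 3.19 and 0.72 TPM after PBS (log2 change −3.08, SE 0.66, edgeR adjusted p = 0.0065). Of 10 genes listed as endothelial and stromal, 3 were called lower, with Emcn at 1.5, 1.68, 1.22 and 2.13 TPM after LPS, against 10.6, 8.8, 10.7 and 9.66 TPM after PBS (log2 change −2.47, SE 0.41, edgeR adjusted p = 0.00105), Apob at −3.19, SE 0.65 and Pecam1 at −0.63, SE 0.13. Whether the transcripts of these 3 genes came from such cells was not tested. The 8 haemoglobin genes summed to at most 9.28 TPM in any library and 3 of them were at 0 in all 8, and Hbb-bs, a β-globin gene, did not pass (log2 change −1.70, SE 0.98, edgeR adjusted p = 0.281). The 22 T and natural killer cell genes summed to 171 to 232 TPM after LPS and 170 to 205 TPM after PBS. Of 12 tested, 1 was called higher (Gzmb) and 3 lower (Lck, Cd4 and Gata3), with a median of 0.11. The lower count was 1 without LPS replicate 1, 2 or 3 or PBS replicate 1 or 2, and without LPS replicate 4 the counts were 2 and 3 and the median −0.42. The part of mature cells in the changes was not tested.

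In experienced mice 686 genes were called higher and 1254 lower, against 1490 (9.81%) and 1803 (11.9%) in naive mice. The experienced counts were 1456 and 1701 without LPS replicate 4 and 1612 and 1820 without the 3 atypical libraries. The naive counts in those fits were not computed, so whether experienced mice had fewer calls was not settled. Of the experienced calls, 71.5% had the same call in naive mice (446 higher and 942 lower) and 98.4% the same sign. Of the naive calls, 42.2% were called in experienced mice. The difference between the responses was tested as an interaction, and 0 genes (0%) were called by edgeR and 1 by DESeq2. By edgeR, 695 of the 15186 genes had an unadjusted p under 0.05, fewer than the 1 in 20 that chance gives. Without LPS replicate 4 these were 2568 of 15558, more than that share, and 0 were called. The median SE of the interaction was 0.35 on the log2 scale, against 0.25 for the response itself, so differences of modest size were not detectable. Interferon-induced genes had a median of 0.47 in experienced and 1.04 in naive mice (8 and 24 of 36 called higher), erythroid genes 0.021 and 2.27 (1 and 17 of 28), basophil genes 1.33 and 2.17 (9 and 11 of 17) and lymphoid-primed genes −1.77 and −2.05 (14 and 17 of 26 called lower). These are values side by side, and no member of the lists was called for the interaction. The interferon-induced median of experienced mice was 0.30 without LPS replicate 4 and 0.20 with the 3 atypical libraries left out, and the erythroid median was 2.15 with the 3 left out. No library was left out for the naive values. Naive LPS replicate 2 had a voom quality weight of 0.25, lower than those of experienced PBS replicates 3 and 4 (0.351 and 0.336).

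**Figure D5:**
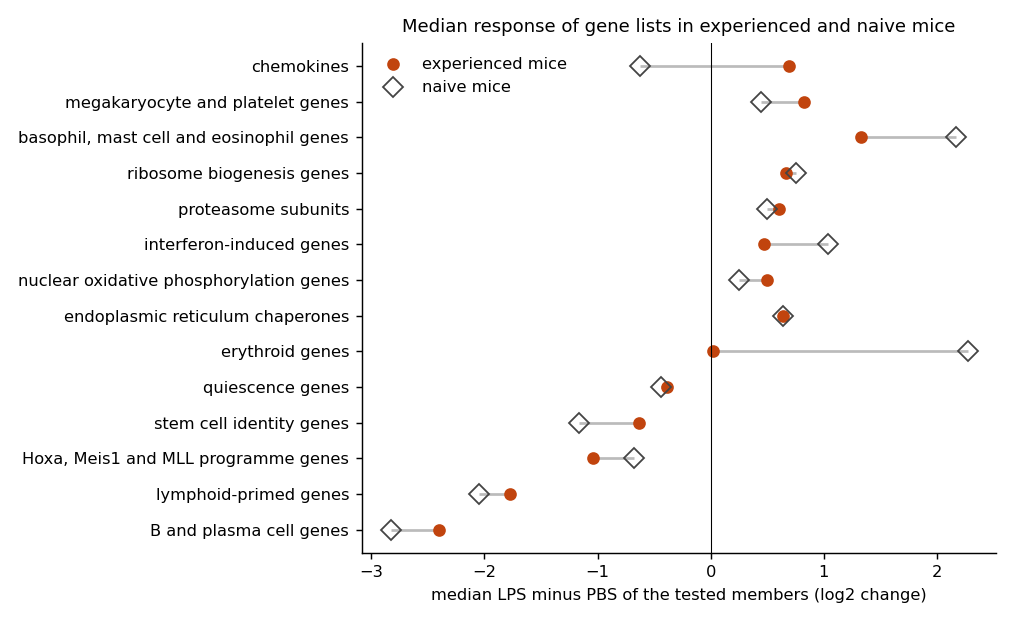
Median log2 change, LPS minus PBS, of the tested members of 14 lists (x axis) in experienced mice (filled circles) and naive mice (open diamonds). The 2 medians lie close for ribosome biogenesis (0.66 and 0.76) and far apart for erythroid genes (0.021 and 2.27).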

How the data were processed

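Bulk RNA of sorted HSPCs was analysed from 1 table per biological replicate. The deposited tables hold expected counts and TPM for 45706 genes on GRCm38, and per the submitters' processing notes they were made with Trim Galore 0.6.7, STAR 2.7.10a and RSEM 1.3.1. The sources used here name neither the annotation release nor the strand setting, so overlapping and antisense genes are uncertain. Per the labels, each biological replicate had 2 technical replicates and the library kit was a 10x Chromium one, although RNA was extracted in bulk, and the deposited expected counts were treated as bulk. Symbols and coordinates came from GENCODE vM21 (45143 identifiers matched).

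Expected counts were rounded and tested with edgeR 4.0.16 in R 4.3.3 (quasi-likelihood, TMM factors, filterByExpr, all 16 libraries with 1 mean per group, 12 residual degrees of freedom). The 15186 tested genes held 99.928% of counts. Calls had a Benjamini-Hochberg adjusted p under 0.05. TPM, as deposited by the authors, are printed as levels. Alternatives used DESeq2 1.42.0 and limma 3.58.1. The fitting code was tested on simulated data. Depth was 7.72 M to 22.3 M (M, 1000000) counts per experienced library, and the median standard error was 0.25 (log2).

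The comparison and the 47 gene lists were chosen with earlier results of these data known. Named genes were the 12 largest rises and 12 largest falls described in the text, the leading members by adjusted p of every list described (at most 4), and 38 genes chosen by name, of which 1 is not reported here.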

Additional observations from a re-analysis of the deposited data

Results flagged for a closer look

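One sample lay far from the other 3 of its group, by Dixon's criterion on TPM, in 25 of 244 groups of 4 tested over 122 genes, where chance gives about 1 in 20. Most of these samples were LPS replicate 4 of experienced mice. It was above the other LPS libraries for Kit (203 TPM), Procr (9.01), Hlf (40.8), Ly96 (6.16), Irak3 (30.9), Myc (521), Tlr7 (3.91), Ifnar1 (40.2), Eya1 (39.0), Cnn3 (11.1) and Txnip (256), several of them genes that fell after LPS. It was below them for Myd88 (22.2), Ms4a3 (90.5), Sdf2l1 (29.4), Ldha (300) and Cox5b (277). Its mitochondrial share of counts, 7.30%, also stood apart from the other 3. The gene flags rest on TPM, and the counts that were tested can place a library differently. In CPM every LPS library lay below every PBS library for Kit, Hlf, Tlr7, Ifnar1, Eya1, Cnn3 and Txnip. For Procr, Ly96, Irak3 and Myc the groups overlapped in CPM.

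LPS replicate 3 was above the rest for CT010467.1 (67.8 TPM) and below for Jchain (0.50) and Bpifc (0.67), and LPS replicate 2 was above for Itgam (2.86). PBS replicate 1 was above the other PBS libraries for Kit (222) and below them for Gp5 (6.89) and Shmt2 (95.1), PBS replicate 3 was above for Cntnap1 (0.49), and PBS replicate 4 was below for Cd34 (310). In Cntnap1, Jchain, Bpifc, Itgam, Gp5, Shmt2 and Cd34 the groups still did not overlap.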

How the results depend on the processing

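No gene called with all libraries was called the opposite way under any of the 20 alternatives. These share most or all of the libraries, so an opposite call was hardly possible. The count of higher genes moved from 686 to 1130 with DESeq2, to 178 with limma on log2(TPM + 1), to 200 at an adjusted p under 0.01 and to 199 above 2-fold. The lower count, 1254, moved to 537 at that p, to 757 above 2-fold and to 700 with the 8 experienced libraries alone. Limma voom with sample quality weights, which weighted LPS replicate 4 at 0.16, called 3521 and 4021. With 1 experienced library left out, the counts ran from 302 to 1456 and from 712 to 1701, and 1612 were higher without LPS replicate 4 and PBS replicates 3 and 4. DESeq2 called 1 gene for the difference from naive mice. The cause was not tested. Of 103 named calls, 22 were not made by limma on log2(TPM + 1).

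Deviations of same-numbered LPS and PBS libraries correlated at 0.175, 0.222, −0.123 and 0.321 for numbers 1 to 4, and 4 of 8 libraries correlated best with their own number. As number 3 was negative and no label ties the numbers to a shared source, they are not treated as pairs. The replicate block over all libraries gave 540 and 1052 calls, and within the 8 experienced libraries 622 and 770.

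The mitochondrial share difference ranged from −1.33 to 0.729 percentage points with 1 library left out, and the detected genes from −1234 to 84.5 (without LPS replicate 4). At a minimum of 1 TPM detection differed by −558.5 genes (exact permutation p = 0.0286, the smallest possible). Changes that were not called changed sign. Ly96 was at −0.25 with quality weights and without the 3 libraries, and at −0.0235 to 0.92 with 1 left out. Irak3 was at 0.00829, 0.00991, 0.0149, 0.00799, 0.00509 and 0.0147 with DESeq2 size factors, DESeq2, no filter, a stricter filter, the 8 libraries alone and no mitochondrial genes, and at −0.37 to 0.15 with 1 left out. Stat3 under the same 6 was at 0.00226, 0.00184, 0.0195, 0.00381, 0.000425 and 0.0171, at 0.0223 with the block in the 8 libraries, and at −0.13 to 0.10 with 1 left out. Cdk6 was at −0.0956 with limma on TPM. Elane was at 1.68 with quality weights, 2.09 without the 3 libraries, 0.139 with the block in the 8 libraries and −1.24 to 0.147 with 1 left out. Low counts limit how well the changes of Saa3, Lrg1 and Blnk are measured.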

Other observations

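Of 23 p53 targets, 3 were called higher and 2 lower (median log2 change 0.20), near the shares of all genes for the lower calls (4.52% of all genes were called higher and 8.26% lower). The higher count was 2 without LPS replicate 1, 2 or 3 or PBS replicate 3. Pmaip1, the cell death activator Noxa, had 6.5, 8.26, 7.55 and 5.99 TPM after LPS, against 2.03, 1.2, 3.33 and 2.47 TPM after PBS (log2 change 1.79, SE 0.36, edgeR adjusted p = 0.00391). Trp53inp1, a stress-induced tumour suppressor, had 3.52, 4.45, 4.17 and 6.51 TPM after LPS, against 21.3, 15.1, 17.5 and 11.2 TPM after PBS (log2 change −1.66, SE 0.26, edgeR adjusted p = 0.00064), and Sesn1, an inhibitor of mTORC1 signalling, had 17.9, 16.6, 15.6 and 17.7 TPM after LPS, against 49.4, 38.5, 41 and 25.6 TPM after PBS (log2 change −1.01, SE 0.15, edgeR adjusted p = 0.000611). In none of these 3 did the groups overlap, and LPS replicate 4 lay near the other LPS libraries in each.

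Some chromatin regulators fell. Of 23 DNA methylation and Polycomb genes, 5 were called lower and 0 higher (3 lower without LPS replicate 1 or 3 or PBS replicate 1 or 2), against 8.26% of all genes, with 11 of 23 positive and a median of −0.017. Tet1, a 5-methylcytosine dioxygenase, had 9.35, 9.55, 9.49 and 8.84 TPM after LPS, against 24.7, 22.9, 15.8 and 16.8 TPM after PBS (log2 change −1.03, SE 0.15, edgeR adjusted p = 0.000489). Cbx7, a Polycomb subunit linked to stem cell self-renewal, had 7.8, 5.7, 5.2 and 9.6 TPM after LPS, against 18.5, 16.4, 15.7 and 15.3 TPM after PBS (log2 change −1.13, SE 0.22, edgeR adjusted p = 0.00335). The LPS values of Tet1 were within a narrow range in all 4 libraries.

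Antigen presentation genes mostly did not pass. Of 19 class I genes 1 was called higher (5 without LPS replicate 4), and of 10 class II genes 0 were called higher and 1, H2-Ob, lower. H2-Ob, part of a class II chaperone of B cells, had 8.52, 10.2, 11.1 and 8.61 TPM after LPS, against 49.9, 29, 28.7 and 13.8 TPM after PBS (log2 change −1.63, SE 0.23, edgeR adjusted p = 0.000316). Of 16 GTPases induced by interferon γ, 3 were called higher and 2 lower (median 0.054), and leaving out each experienced library in turn gave 1 to 3 higher (1 without LPS replicate 2, PBS replicate 1 or PBS replicate 3) and 0 to 4 lower (4 without LPS replicate 4). Their naive median was 0.76. Of 12 genes of the Myc network, 0 were called higher and 3 lower, of 22 genes of transforming growth factor β signalling 3 and 2, of 26 adhesion and homing genes 1 and 4, and of 22 cholesterol synthesis genes 0 and 1. Over all genes, 4.52% were called higher and 8.26% lower, and some of the counts in this paragraph lie near those shares.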
